A study of Mus musculus with 50 samples.

Results

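The potassium channel and HCN channel genes of mouse dorsal root ganglia, where sensory neurons have their cell bodies, were described over 25 inbred strains. The set holds 41 genes of 5 classes: voltage-gated potassium (Kv) channels with their accessory subunits, inward rectifiers (Kir), background channels with a pair of pore domains per subunit (K2P), calcium- or sodium-activated channels (KCa) and the hyperpolarization-activated cation channels (HCN). Of these 41, 38 had a probe set that carries exactly 1 gene symbol. Each gene was represented by its probe set with the highest mean over all arrays, called the leading probe set, and was tested when this exceeded a log2 intensity of 4 in at least 2 arrays. That left 34 members among the 11204 genes tested, of 18193 genes named on the array.

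The study measured RNA of naive wildtype mice, 2 months old. Each strain gave 1 array of pooled male and 1 array of pooled female ganglia, with 3 mice in a pool, which makes 50 arrays. These are the strains AKR/J, BALB/CByJ, 129S1/Sv1mJ, BTBT T+tf/J, SJL/J, c57BL/6J, NZW/LacJ, BUB/BnJ, CBA/J, KK/HIJ, SM/J, PL/J, C58/J, RIIIS/J, NZO/HILtJ, DBA/2J, C3H/HeJ, NOD/LtJ, C57BR/cdJ, FVB/NJ, P/J, MRL/MpJ, SWR/J, A/J and NON/LtJ, spelled as the labels do. No treatment was given in any group. A strain has no replicate of the same sex, so its 2 arrays, 1 of each sex, are all that shows its spread.

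Potassium channels carry potassium out of the cell and so set the resting potential, end the action potential and limit repetitive firing. Kv channels open on depolarization and are built from pore-forming alpha subunits, which silent alpha subunits, cytosolic beta subunits and calcium-binding KChIP proteins modify. Kir and K2P channels conduct near rest, KCa channels couple firing to intracellular calcium or sodium, and HCN channels pass a mixed inward cation current after hyperpolarization. In sensory neurons these currents are known to set the excitability of touch, stretch and pain fibres.

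All 12 genes of a list of pan-neuronal and sensory neuron markers were well above the filter in every array, among them Scn10a, a sodium channel gene of pain-sensing neurons, at 8.85 to 9.79 and Prph, a neuronal intermediate filament gene, at 12.02 to 12.80 log2 units. Probe sets above 4 numbered 18703 to 19038 in male and 18887 to 19327 in female arrays. The lowest intensity of an array was 1.63 to 1.66 in males and 1.73 to 1.74 in females, ranges that do not overlap, so that any difference between the sexes and a separate normalization of the male and female arrays cannot be told apart. Sex transcripts stood apart in the array labelled as male PL/J and in the array labelled as female SM/J: Xist, which silences an X chromosome, was at 8.97 in the first against at most 7.78 in the other males, and the Y chromosome gene Eif2s3y was at 6.82 in the second against at most 3.46 in the other females. Another Y chromosome gene, Kdm5d, was at 2.67 in that female array, within the 2.66 to 2.77 of the other females. The control transcript Gapdh had its 3' signal above its 5' signal, by 0.60 and 0.34 log2 units, in the male BTBT T+tf/J and female P/J arrays. In the other 48 arrays this difference lay between -0.73 and -0.09. The values below are therefore also given without BTBT T+tf/J where that strain matters.

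Promoter sequences are shown for 4 members, namely the pair whose strain means are described first because they had the lowest adjusted p (Kcnc4 and Kcnip2), and the pair with the highest correlation of strain means among members that were both called for strain and both in the promoter table (Kcnh1 and Kcna6). Each line is the 250 bases upstream of the annotated start in RefSeq, assembly GRCm38.p6, read 5′ to 3′ on the gene's strand, with GGGCGG or its reverse complement CCGCCC, the core letters of a GC box, in capitals. Kcnc4 lies on the minus strand at chr3:107458899-107459148, Kcnip2 on the minus strand at chr19:45816064-45816313, Kcnh1 on the plus strand at chr1:192190527-192190776 and Kcna6 on the minus strand at chr6:126740675-126740924.
Kcnc4: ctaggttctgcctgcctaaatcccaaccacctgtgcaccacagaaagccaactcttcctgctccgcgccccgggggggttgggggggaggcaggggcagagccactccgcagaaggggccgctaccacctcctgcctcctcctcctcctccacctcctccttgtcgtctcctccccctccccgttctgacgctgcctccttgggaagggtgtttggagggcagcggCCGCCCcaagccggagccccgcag
Kcnip2: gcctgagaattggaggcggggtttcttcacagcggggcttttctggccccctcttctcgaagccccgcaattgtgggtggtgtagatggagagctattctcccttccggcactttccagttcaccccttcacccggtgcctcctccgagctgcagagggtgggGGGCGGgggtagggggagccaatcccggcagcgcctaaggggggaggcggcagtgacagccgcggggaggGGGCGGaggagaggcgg
Kcnh1: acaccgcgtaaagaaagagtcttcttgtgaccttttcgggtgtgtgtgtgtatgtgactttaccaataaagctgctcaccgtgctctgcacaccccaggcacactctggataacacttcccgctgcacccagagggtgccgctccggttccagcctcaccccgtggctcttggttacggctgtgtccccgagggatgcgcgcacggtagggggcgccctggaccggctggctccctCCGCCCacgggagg
Kcna6: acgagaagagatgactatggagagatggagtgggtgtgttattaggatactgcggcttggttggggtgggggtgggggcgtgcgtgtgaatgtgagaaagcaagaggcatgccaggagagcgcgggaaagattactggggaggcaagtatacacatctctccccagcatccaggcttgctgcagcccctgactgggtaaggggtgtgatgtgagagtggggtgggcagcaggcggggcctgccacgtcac

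Of the 34 tested members, 26 had an entry in the promoter table, and 14 of these 26 (53.8%) held GGGCGG on either strand. The same letters stood in the same 250 upstream bases of 32.9% of all 27025 promoters. Of the printed sequences, those of Kcnc4, Kcnip2 and Kcnh1 held the motif and that of Kcna6 did not. TATAAA, TGACGTCA (the full cyclic AMP response element) and CACGTG (an E box), searched on both strands, were in 0 member promoters, against 13.0%, 1.62% and 6.05% of all promoters. The member promoters were richer in G and C, with a median of 61.6% and 11 CpG dinucleotides against 52.0% and 6, and the part of this composition in the motif share was not tested. These matches are a description of letters and say nothing about factors.

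Potassium channel genes often differed in level between strains. Of the 34 members tested, 20 (58.8%) were called for strain (limma's moderated F test over 25 strain means, sex as an additive term, Benjamini-Hochberg adjusted p under 0.05 over all probe sets tested), while 26.1% of all genes tested were called by the same rule. The calls fell on 14 of 21 Kv members, 2 of 3 Kir members and 4 of 5 KCa members, and on 0 of 3 K2P and 0 of 2 HCN members. At an unadjusted p under 0.05, limma's F test gave 17 Kv, 2 Kir, 2 K2P, 5 KCa and 0 HCN members. These are 26 of the 34 members, where 4376 of all 11204 genes tested passed the same threshold. The median distance between the highest and the lowest strain mean was 0.96 log2 units over the members and 0.82 over all genes tested. Male and female arrays, which are separate pools, ordered the strains with a median Pearson r of 0.47 over the members and 0.26 over all genes, n = 25 strains. Without BTBT T+tf/J the count of called members was again 20, on the same 20 genes, where 26.5% of all genes were called. Of the 34 members, 32 exceeded the filter in all 50 arrays, Kcnma1 in 48 and Kcnj12 in 45, so that the filter did not choose members for being high in 1 strain. In ganglion tissue, fewer cells of a type and less RNA per cell cannot be told apart.

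**Figure D1:**
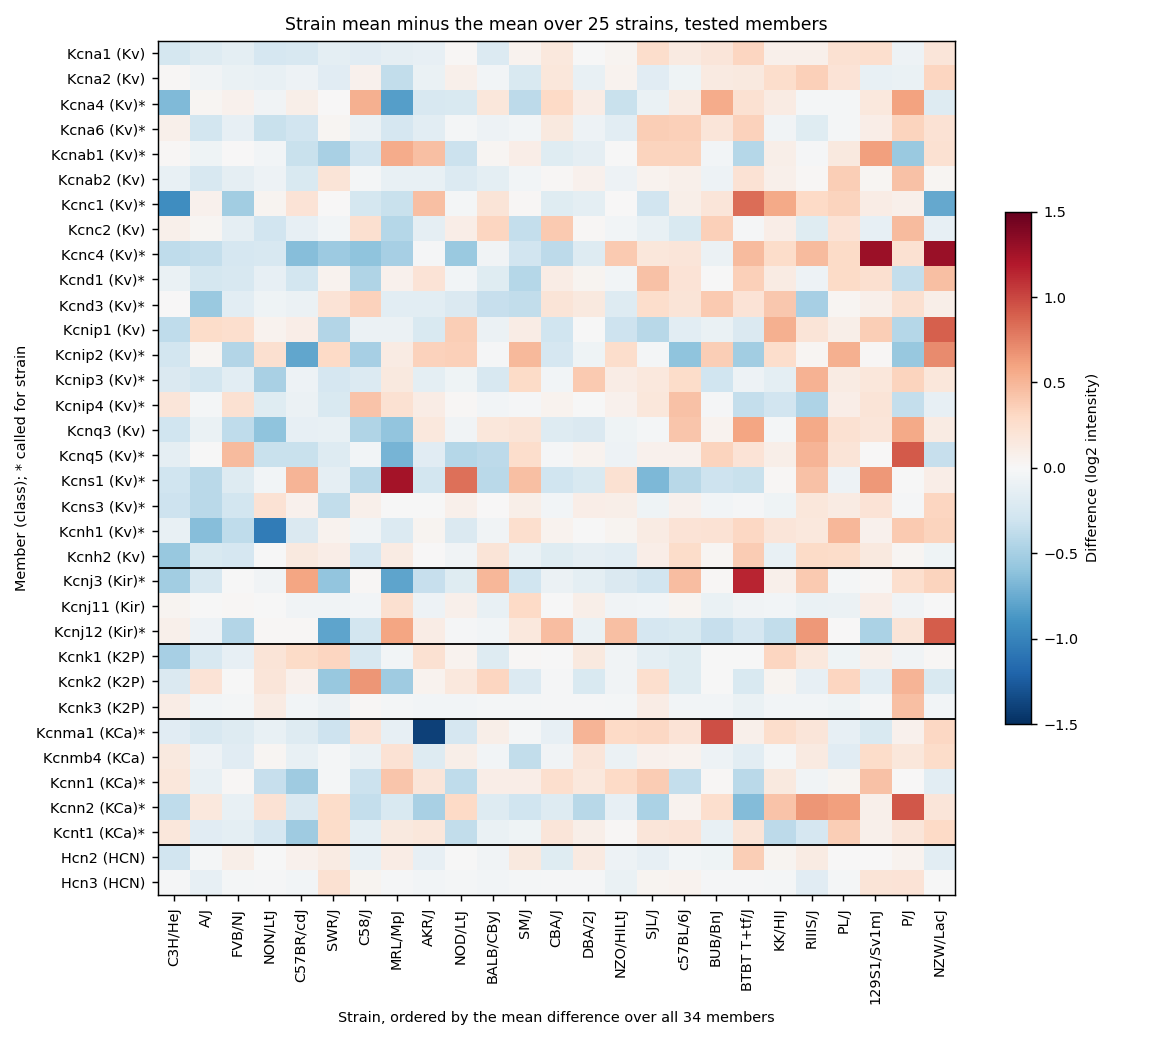
Strain mean minus the mean over 25 strains (colour, log2 intensity) for the 34 tested members (rows, grouped by class, with a star on the 20 called for strain), with strains ordered from left to right by their mean difference over all members. Kcnc4 stands out in 129S1/Sv1mJ and NZW/LacJ, Kcns1 in MRL/MpJ, Kcnj3 in BTBT T+tf/J and Kcnma1, as a low value, in AKR/J.

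The Kv3 genes encode channels that open and close fast and support brief action potentials. Kcnc4, whose subunit carries fast-inactivating current in pain-sensing neurons, had its array values between 6.43 and 8.73 with a median of 7.22. NZW/LacJ was at 8.73 for males and 8.40 for females and 129S1/Sv1mJ at 8.65 and 8.47. The next strain in order, BTBT T+tf/J, had 8.29 and 7.21, and the lowest, C57BR/cdJ, had 6.82 and 6.44. Strain means thus ranged by 1.93, or 3.82-fold on the scale of the value + 1 (adjusted p = 1.335e-06 by limma's F test), and male and female values correlated over strains at r = 0.81 (0.62 without 129S1/Sv1mJ and NZW/LacJ). NZW/LacJ exceeded the mean of the other 24 strains by 1.35 (SE 0.17, adjusted p = 4.34e-06 by limma's contrast) and 129S1/Sv1mJ by 1.34 (SE 0.17, adjusted p = 4.91e-06). The strain mean of 129S1/Sv1mJ stood 0.81 above that of BTBT T+tf/J, 3.35 times the standard error of a difference between 2 strain means, and Kcnc4 had no other gap between neighbours above 1 such error. A further Kcnc4 probe set followed the leading one at r = 0.88, was called (adjusted p = 9.1e-06) and was highest in NZW/LacJ at 6.90, followed by 129S1/Sv1mJ at 6.35, and lowest in SWR/J at 4.84.

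Kcnc1, the Kv3 gene typical of fast-firing neurons, had array values from 5.65 to 8.05 with a median of 6.75. BTBT T+tf/J was highest with 8.05 for males and 7.06 for females, and KK/HIJ, the next in order, had 7.04 and 7.54. C3H/HeJ was lowest with 5.88 and 5.68, next to NZW/LacJ with 6.26 and 5.65. The range was 1.77 (adjusted p = 0.00301), and 1.5 without BTBT T+tf/J (adjusted p = 0.00374). The difference of BTBT T+tf/J from the other 24 strains was 0.87 (SE 0.20, adjusted p = 0.00935), under the 1 log2 unit needed for a call. The further Kcnc1 probe sets followed the leading one at r = 0.61 and 0.61, and at 0.49 and 0.50 without BTBT T+tf/J. The first was not called and had BTBT T+tf/J highest at 6.06. The second was called, with 129S1/Sv1mJ highest at 7.36 and BTBT T+tf/J next at 7.34. Kcnc2, another Kv3 gene, had a range of 0.89 and was not called (adjusted p = 0.359).

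**Figure D2:**
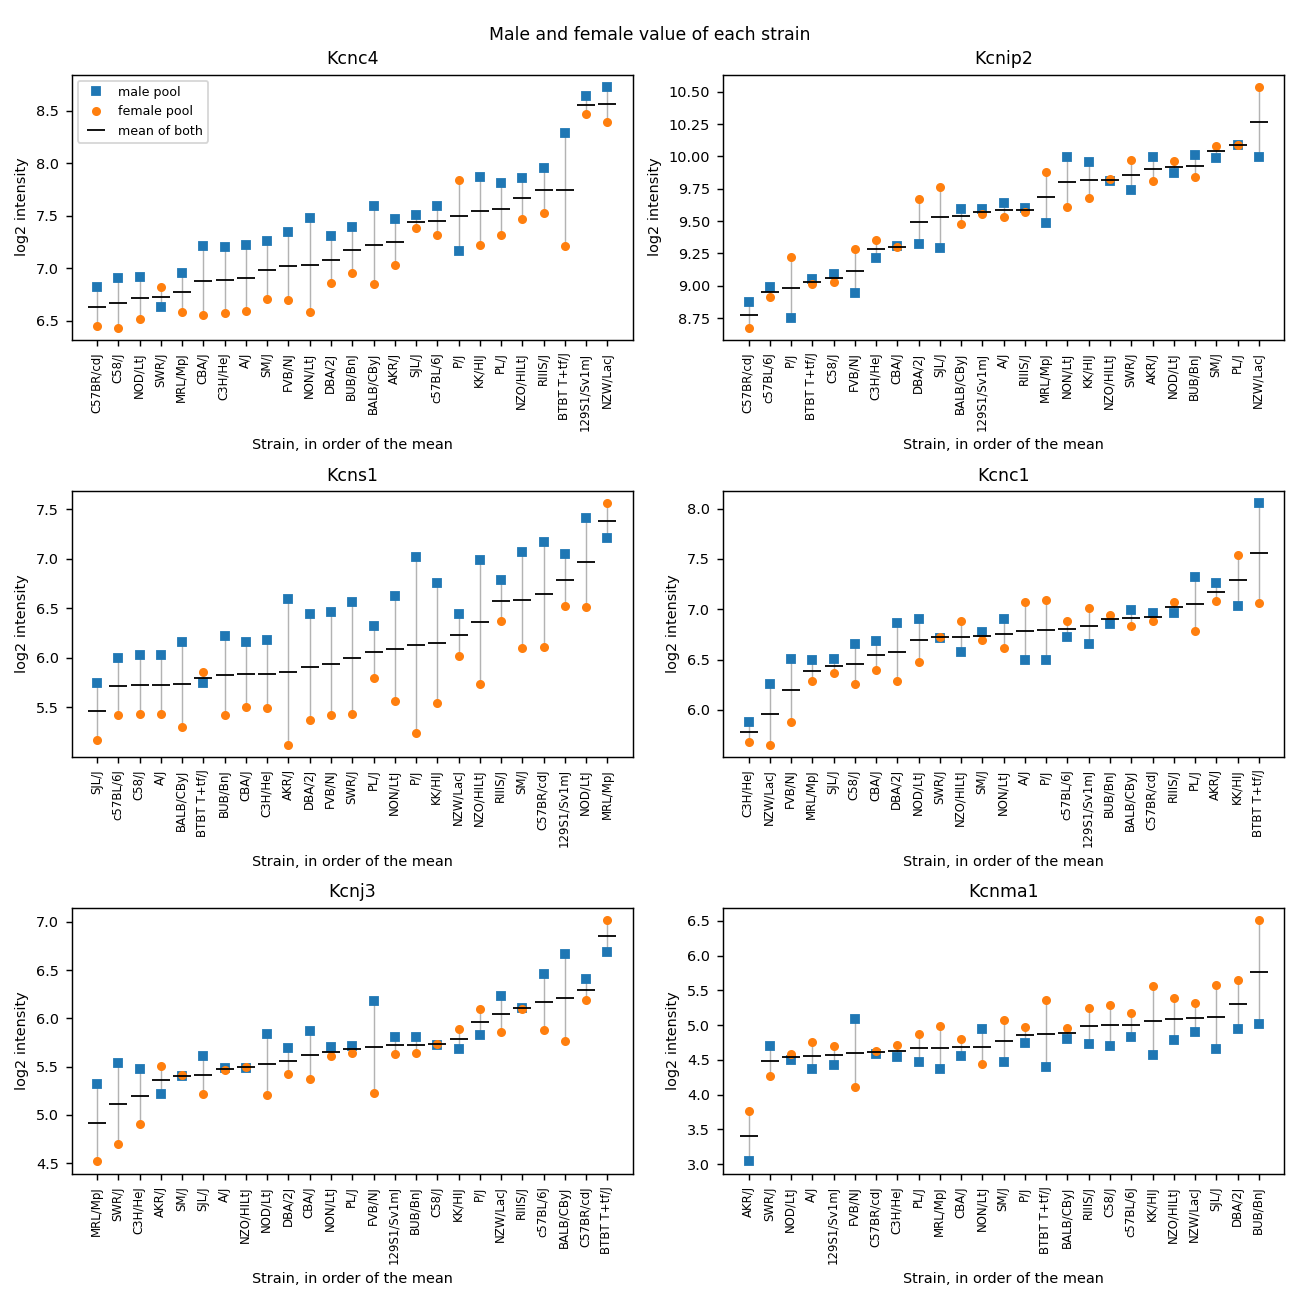
Male (squares) and female (circles) log2 intensity of 6 called members in each of 25 strains, ordered by the mean of both (dash), with 1 array a point and no error bar because a strain has 1 array of each sex. For Kcnc4, 129S1/Sv1mJ and NZW/LacJ lie apart from the rest in both sexes; for Kcnma1, AKR/J lies below all other strains; for Kcnip2 both sexes climb together along the order, with r = 0.82.

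Kv4 subunits carry the subthreshold A-type current, and KChIP proteins, calcium sensors encoded by the Kcnip genes, bind them and change their surface level and kinetics. Kcnip2 had array values from 8.68 to 10.54 with a median of 9.60. NZW/LacJ had 9.99 for males and 10.54 for females, PL/J 10.09 in both, C57BR/cdJ 8.87 and 8.68, and c57BL/6J 8.99 and 8.91. The sexes thus agreed on which strains were high and low, and the range was 1.5 (adjusted p = 1.26e-06, male to female r = 0.82, and 0.81 without NZW/LacJ and C57BR/cdJ). Neighbouring strains were less distinct, since the largest gap in the order, between CBA/J and DBA/2J, was 0.19, which is 1.09 standard errors. A further probe set of Kcnip2 followed at r = 0.78 and was called (adjusted p = 0.00319).

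The other KChIP genes moved less. Kcnip3, whose protein also acts as a calcium-dependent repressor of transcription, ranged by 1.01 from RIIIS/J, at 8.91 for males and 8.28 for females, to NON/LtJ at 8.08 and 7.09 (adjusted p = 0.00735). Its further probe set had r = 0.19 with the leading one and was not called (adjusted p = 0.228 by limma's F test). The Kcnip3 call was lost with the mean of its probe sets and without the sex term in the fit. Kcnip4 ranged by 0.90, from c57BL/6J at 11.74 and 11.68 to RIIIS/J at 10.99 and 10.62 (adjusted p = 0.0134). BTBT T+tf/J was next to lowest in Kcnip4 with 10.56 for males and 11.27 for females. Kcnip1 had a range of 1.34, with NZW/LacJ highest at 7.85, and was not called (adjusted p = 0.0870). Its call turned on SWR/J, since without the male or the female SWR/J array it passed, with adjusted p down to 0.000601.

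Both tested Kv4 pore genes were called. Kcnd1 ranged by 0.91 (adjusted p = 0.00541) from NZW/LacJ, at 9.38 for males and 9.26 for females, to C58/J at 8.62 and 8.21. Kcnd3 ranged by 0.96 (adjusted p = 0.00753) from KK/HIJ, at 9.77 and 10.09, to A/J at 8.87 and 9.08. The third Kv4 gene, Kcnd2, had a mean of 3.40 and exceeded 4 in 1 array, so that it was not tested. One of the further Kcnd1 probe sets followed the leading one at r = 0.70 and another at 0.07, and that of Kcnd3 did so at -0.22, so the strain order of both genes depends on the probe set.

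Kv1 channels are low-threshold channels, and those made of the Kcna1 and Kcna2 subunits sit beside the nodes of myelinated axons. Kcna1 carried the highest mean of all Kv probe sets, 11.64, which orders probe sets and not transcripts. Its array values ran from 11.27 to 12.22 with a median of 11.62. BTBT T+tf/J was highest with 11.70 for males and 12.22 for females and C3H/HeJ lowest with 11.44 and 11.30, a range of 0.59 that was not called (adjusted p = 0.0860), and of 0.53 without BTBT T+tf/J. Kcna2 was not called either (range 0.73, adjusted p = 0.196). A further Kcna1 probe set was called (range 1.21, adjusted p = 0.0254 by limma's F test), with SM/J highest and SWR/J lowest. Its r with the leading one was 0.29, and that of another was 0.05. The strain order of Kcna1 thus depends on the probe set. With the mean of all probe sets of a gene, both Kcna1 and Kcna2 were called. Kcna6 had one of the narrowest called ranges, 0.70 (adjusted p = 0.0234), between SJL/J at 7.92 and 7.94 and NON/LtJ at 7.44 and 7.02. A further Kcna6 probe set ran opposite to the leading one, with r = -0.60, and another did not follow it, with r = 0.06.

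Kcna4, which gives a fast-inactivating Kv1 current in small sensory neurons, had array values from 6.09 to 8.16 with a median of 7.03. Its strain means ranged by 1.43 from P/J to MRL/MpJ (adjusted p = 0.0303). P/J had 7.03 for males and 8.16 for females, a wider spread than MRL/MpJ with 6.20 and 6.13. The call was lost, with adjusted p up to 0.0814, when either MRL/MpJ array or the female BUB/BnJ, C58/J or C3H/HeJ array was left out. Of the cytosolic beta subunit genes, Kcnab1, with a median of 9.12, ranged by 1.18 (adjusted p = 0.00380), from 129S1/Sv1mJ at 9.72 for males and 9.81 for females to P/J at 9.10 and 8.07. Its male to female r was 0.60, and 0.71 without BTBT T+tf/J, whose arrays had 8.43 and 9.00. Kcnab2 ranged by 0.69 and was not called (adjusted p = 0.152), and its further probe set had r = -0.43 with the leading one.

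Kcns1 and Kcns3 encode silent Kv subunits, which form no channel alone and join Kv2 subunits. Kcns1 had array values from 5.12 to 7.56 with a median of 6.10. MRL/MpJ was at 7.21 for males and 7.56 for females, NOD/LtJ at 7.42 and 6.51, c57BL/6J at 6.00 and 5.43 and SJL/J at 5.75 and 5.17. The range was 1.92, or 3.79-fold (adjusted p = 0.00141, male to female r = 0.61). MRL/MpJ was 1.30 above the mean of the other strains (SE 0.22, adjusted p = 0.000430), and its male value lay within the range of the other strains, whose highest array was at 7.42. Kcns3 ranged by 0.73 from NZW/LacJ, at 7.11 and 7.27, to A/J, at 6.54 and 6.38 (adjusted p = 0.0238). This call was lost without the female A/J array (adjusted p = 0.0623). Kcnb2, the Kv2 gene of the set, had no probe set of 1 symbol.

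Kcnq3 and Kcnq5 encode subunits of the M current, a slow brake on repetitive firing. Kcnq5 had a median over arrays of 6.97 and ranged by 1.62 (adjusted p = 0.00555), with P/J at 7.45 for males and 8.35 for females, RIIIS/J at 7.53 and 7.46, and MRL/MpJ at 6.20 and 6.36. Without the male BTBT T+tf/J and female P/J arrays its range was 1.21 (adjusted p = 0.00743). Kcnq3 had a range of 1.20 and missed the threshold (adjusted p = 0.0522, and 0.0193 to 0.0899 with 1 array left out). BTBT T+tf/J was its highest strain at 8.03, and without that strain the range was 1.17 (adjusted p = 0.0918).

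The Kcnh genes encode channels of the EAG and ERG families. Kcnh1, the EAG gene, had array values from 5.94 to 8.09 with a median of 7.14. NON/LtJ was at 6.18 for males and 5.94 for females, below every array of the other strains, whose lowest was 6.26. PL/J, the highest strain, had 7.47 and 7.74, and P/J had 6.90 and 8.09. The range was 1.54 (adjusted p = 0.00469), and NON/LtJ was 1.09 below the mean of the other strains (difference -1.09, SE 0.18, adjusted p = 0.000191). Male and female values correlated at r = 0.63, and at 0.26 without A/J and NON/LtJ. The further Kcnh1 probe set was also called and also lowest in NON/LtJ, at 2.73, with r = 0.33 to the leading one. Its mean was 3.946 and the NON/LtJ value lies under the filter of 4, so the size of that difference is not well determined. Kcnh2, the ERG gene, had a range of 0.95 and was not called (adjusted p = 0.323).

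Among the inward rectifiers, Kcnj3 encodes a subunit of the channels that G protein-coupled receptors open. Its array values ran from 4.52 to 7.02 with a median of 5.69. BTBT T+tf/J had 6.68 for males and 7.02 for females, both above every other array of the series, the highest of which was 6.66. C57BR/cdJ followed with 6.41 and 6.19, and MRL/MpJ was lowest with 5.32 and 4.52. The range was 1.93, or 3.82-fold (adjusted p = 0.000524, male to female r = 0.67), and 1.38 without BTBT T+tf/J (adjusted p = 0.00482, r = 0.57). The gap of 0.55 between BTBT T+tf/J and C57BR/cdJ was 2.04 standard errors.

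Kcnj3 was the 1 member of 34 (2.94%) called in BTBT T+tf/J against the other 24 strains, with a difference of 1.19 (SE 0.19, adjusted p = 0.000166 by limma's contrast), where 0.991% of all genes were called in this strain and 0.482% as higher. The call ended without the female BTBT T+tf/J array (0.88, adjusted p = 0.0509) and held without the male one (1.5, adjusted p = 0.000543). The 2 further Kcnj3 probe sets did not share the pattern. BTBT T+tf/J ranked 9 from the top in 1 of them, which had r = 0.50 with the leading set and C57BR/cdJ highest at 5.28. It ranked 20 in the other, with r = 0.10. Their means, 4.42 and 4.305, lay close to the filter of 4, against 5.71 for the leading set, which limits what they can show.

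Kcnj12, a classical strong inward rectifier gene, lay close to the filter, with array values from 3.28 to 6.72 and a median of 4.92. NZW/LacJ had 6.72 for males and 4.80 for females and SWR/J 4.67 and 3.44. Its range was 1.70 (adjusted p = 0.0164), or 1.43 with values under 4 raised to 4, and its male to female r was 0.47, rising to 0.67 without BTBT T+tf/J, where the male array had 5.93 and the female 3.28. Kcnj11, the pore of the ATP-sensitive channel, had the narrowest range of all members, 0.40 (adjusted p = 0.463). Kcnj9, a G protein-gated gene, had a mean of 3.19, was above 4 in 1 array and was not tested.

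No K2P member was called. Kcnk1, whose probe set had the highest mean of the class, was at 8.46 to 9.95 and ranged by 0.83 from SWR/J, at 9.95 for males and 9.05 for females, to C3H/HeJ at 8.89 and 8.46 (adjusted p = 0.0733). Kcnk2, the gene of a channel opened by stretch and heat, was at 5.56 to 7.09 and ranged by 1.23 from C58/J, at 6.77 and 7.04, to SWR/J, at 5.57 and 5.78 (adjusted p = 0.0529). For both, a p that misses the threshold does not show that strains are alike. Kcnk3, an acid-sensitive background channel gene, had a range of 0.55 (adjusted p = 0.618) with P/J 0.33 above the next strain. Kcnk10 had a mean of 3.07 and never exceeded 4, and Kcnk18 had no probe set of 1 symbol.

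Kcnma1 encodes the pore of the large-conductance calcium-activated channel. Its array values ran from 3.04 to 6.51 with a median of 4.75. AKR/J had 3.04 for males and 3.76 for females, below all other arrays, the lowest of which was 4.12. BUB/BnJ had 5.01 and 6.51 and DBA/2J 4.95 and 5.66. The strain means ranged by 2.36 (adjusted p = 0.0238). Both AKR/J values lie under the filter of 4, so the size of this range is not well determined. With all values under 4 raised to 4, a step chosen after seeing the data, it was 1.76, which ranks 5 among the members. AKR/J was below the other strains (difference -1.46, SE 0.25, adjusted p = 0.000416) and BUB/BnJ was 1.0 above them (SE 0.25, adjusted p = 0.0191). Leaving out the male or the female AKR/J array ended the strain call (adjusted p = 0.144 and 0.0795), and the male to female r of 0.47 was -0.03 without BUB/BnJ and AKR/J. The call was also lost in 5 of 11 other settings, among them a pseudocount of 16, no filter, and the mean of all Kcnma1 probe sets.

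In a further Kcnma1 probe set, with a mean of 3.805, AKR/J was the highest strain, with 4.67 for males and 5.20 for females. No other strain mean exceeded 3.91, which is under the filter of 4. The 2 AKR/J arrays alone were enough for this probe set to pass the filter. Its call by limma's F test (adjusted p = 3.05e-05) is therefore no separate support for a difference of AKR/J. The r of its strain means with those of the leading set was -0.69, where Spearman's rho was -0.07. The 2 other tested Kcnma1 probe sets had r of 0.25 and 0.10 and were not called. AKR/J was thus lowest in the leading probe set, where its own values lie under 4. It was highest in a further one, where all other strain means lie under 4.

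The other genes of this class were Kcnn1, Kcnn2 and Kcnn3 for small-conductance channels, which shape the afterhyperpolarization, Kcnmb4 for a beta subunit of the large-conductance channel, and Kcnt1 for the sodium-activated channel. Kcnn1 ranged by 0.97 (adjusted p = 0.00424), from 129S1/Sv1mJ, at 7.24 for males and 7.53 for females, to C57BR/cdJ, at 6.52 and 6.32. Its further probe set followed at r = 0.77 and was called. Kcnn2 had a median of 5.54 and ranged by 1.58 (adjusted p = 0.0151 by limma's F test) between P/J, at 6.03 and 6.99, and BTBT T+tf/J, at 4.34 and 5.53. Without BTBT T+tf/J the range was 1.42 (adjusted p = 0.0167). Its highest and lowest arrays, female P/J and male BTBT T+tf/J, were the 2 of highest Gapdh 3' minus 5' signal. The r of Kcnn2 with that signal was 0.14, and 0.56 without BTBT T+tf/J. Kcnt1 ranged by 0.89 from PL/J, at 7.34 and 7.50, to C57BR/cdJ, at 6.74 and 6.31 (adjusted p = 0.0422), a call that was lost in 32 of the 50 fits with 1 array left out (adjusted p up to 0.102). Kcnmb4, whose probe set had the highest mean of this class at 7.74, was not called (range 0.64, adjusted p = 0.109). Kcnn3 had a mean of 2.34, never exceeded 4 and was not tested.

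The HCN genes showed no strain difference that passed the test. Hcn2, the channel gene linked to firing of pain-sensing neurons, was at 5.67 to 7.26 and ranged by 0.65 (adjusted p = 0.511), and by 0.43 without BTBT T+tf/J. That strain had 7.26 for males, the highest of all 50 arrays, and 5.97 for females. Hcn3 ranged by 0.41 (adjusted p = 0.790). Male and female values gave r = 0.09 for Hcn2 and -0.05 for Hcn3 over 25 strains, so that the male and female pools gave no common strain order. Hcn4 had no probe set of 1 symbol.

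Most neighbouring strains in the order of a member did not differ beyond their spread. Of the 816 gaps between neighbours over the 34 members, 22 exceeded 1 standard error of a difference between 2 strain means and 4 exceeded 2. These 4 were the gaps above BTBT T+tf/J in Kcnc4, below BTBT T+tf/J in Kcnj3, below P/J in Kcnk3 and above AKR/J in Kcnma1. The order of most strains within a member is therefore not resolved by these arrays.

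Over all members and strains, 7 of 850 pairs of a member and a strain (0.824%) were called, 5 higher and 2 lower, and 0.854% of all pairs of a gene and a strain. They are the pairs named above: Kcnc4 in 129S1/Sv1mJ and NZW/LacJ, Kcns1 in MRL/MpJ, Kcnj3 in BTBT T+tf/J and Kcnma1 in BUB/BnJ as higher, and Kcnh1 in NON/LtJ and Kcnma1 in AKR/J as lower. NZW/LacJ had the highest mean of 7 members, BTBT T+tf/J and P/J of 6 each. C3H/HeJ and MRL/MpJ had the lowest mean of 5 members each, and C57BR/cdJ and NON/LtJ of 4 each. For BTBT T+tf/J the highest means are 17.6% of the members, against 9.22% of all genes. For the other strains the share over all genes was not counted, so their counts are not read as particular to channel genes.

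The arrays with the highest Gapdh 3' minus 5' difference also held many extreme values. Among female arrays, that of P/J was highest in 11 of 34 members (32.4%) and in 17.5% of all genes tested. Among male arrays, that of BTBT T+tf/J was highest in 10 members (29.4%) and in 15.5% of all genes, and lowest in 4. No other array was highest within its sex in more than 4 members. In the 32 further probe sets of members that passed the filter, the strain mean of BTBT T+tf/J was lowest in 10 (31.2%), against 2 of 34 leading ones (5.88%). Over all genes it was lowest in 15.6% of further and 7.23% of leading probe sets. In the male array alone it was lowest in 12 of the 32, and in the female array in 0. Without the male BTBT T+tf/J and female P/J arrays, all 20 members called for strain passed again. Whether the state of the RNA moved these values was not tested.

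Of the 32 further probe sets, which belong to 22 members, 8 were called for strain (against 24.7% of all probe sets tested) and 16 followed the leading set at r of at least 0.5. An r below 0 was found for 5 of them, 1 each of Kcna2 (-0.01), Kcna6 (-0.60), Kcnab2 (-0.43), Kcnd3 (-0.22) and Kcnma1 (-0.69). Of 17 called members with a further probe set that passed the filter, 7 had a further one called: Kcnc1, Kcnc4, Kcnip2, Kcnh1, Kcnj3, Kcnma1 and Kcnn1. For Kcnma1 the probe sets were called with AKR/J at opposite ends, and the further one could pass the filter through AKR/J alone. The further sets called for Kcnma1 and Kcnh1 had means under 4, at 3.805 and 3.946.

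By class, the mean difference of a strain from the average was compared over the tested members. The means of the Kv class ranged by 0.44 log2 units from 129S1/Sv1mJ at 0.22 to C3H/HeJ at -0.22, and male and female arrays ordered strains at r = 0.63 (n = 25 strains, 21 members). Those of the Kir class ranged by 0.89 with r = 0.67 over 3 members, highest in NZW/LacJ at 0.41. The KCa class had a range of 0.62 and r = 0.43 over 5 members. K2P, with 0.51 and r = 0.20 over 3 members, and HCN, with 0.33 and r = 0.08 over 2, showed little agreement between the sexes. BTBT T+tf/J ranked 4 from the top in the Kv mean, 3 in Kir, 21 in K2P, 23 in KCa and 2 in HCN, so that it held no common rank. Leaving it out changed none of the 5 ranges at the printed precision, and gave male to female r of 0.62, 0.69, 0.18, 0.42 and 0.14 for Kv, Kir, K2P, KCa and HCN. The Kv and KCa means were the most alike, with r = 0.52, and 0.60 without BTBT T+tf/J. The Kv and Kir means had r = 0.36 and 0.32, and every other pair of classes lay between -0.12 and 0.25, or between -0.30 and 0.20 without that strain.

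**Figure D3:**
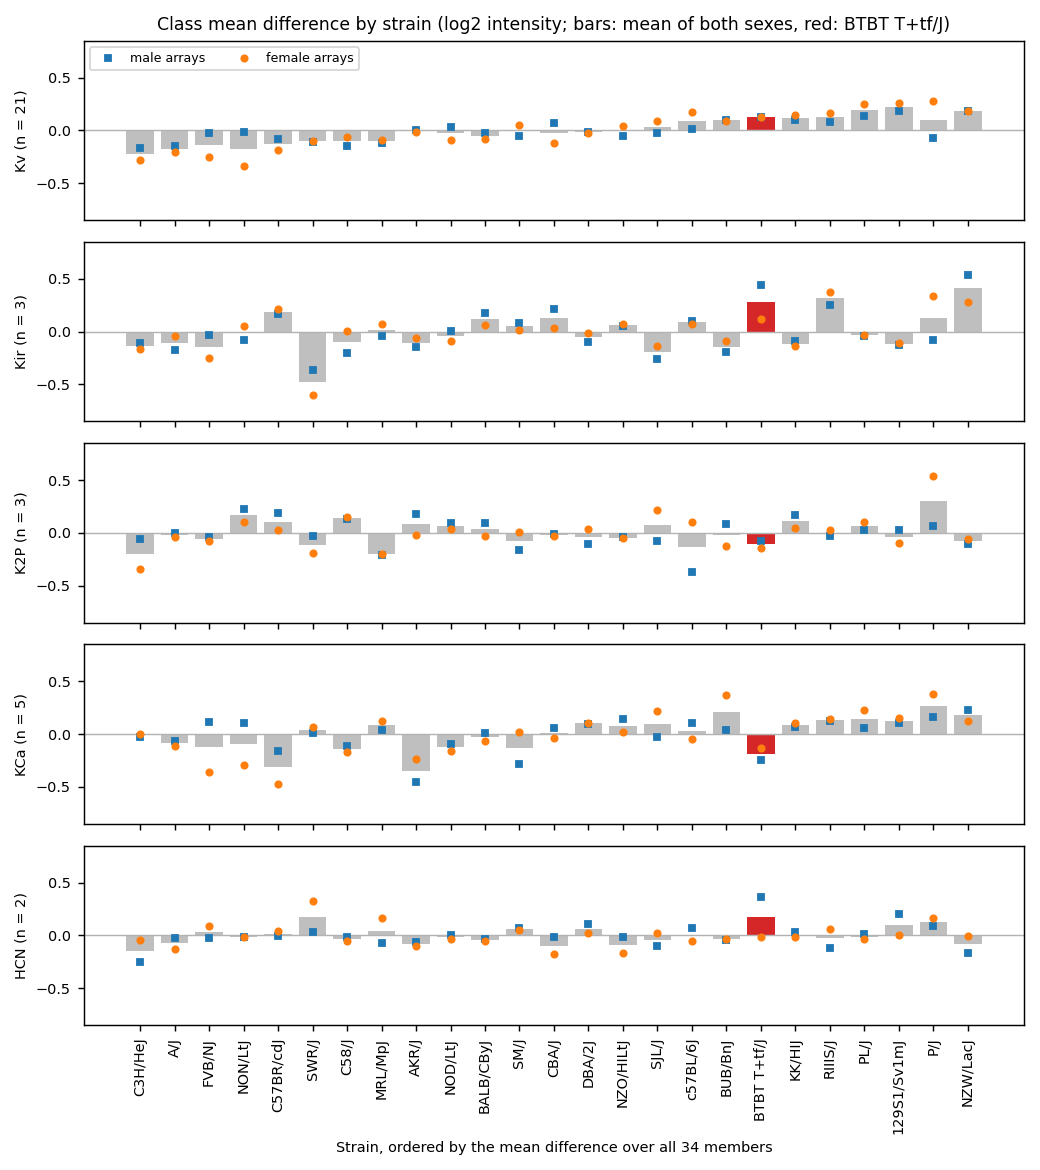
Mean difference of each strain from the average over 25 strains (log2 intensity), by channel class, with bars for the mean of both sexes, squares for male and circles for female arrays, and n for the members averaged. Strains are ordered by the mean over all 34 members, and BTBT T+tf/J (red) is above the average in Kv, Kir and HCN and below it in K2P and KCa, with its male and female arrays apart in Kir and HCN.

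Members were only weakly correlated with each other over strains. Over the 561 pairs of members the median r of strain means was 0.10, and 0.11 without BTBT T+tf/J, 0.06 in male arrays alone and 0.14 in female arrays alone. Over all pairs of tested genes the median was 0.02. An r above 0.5 was found for 42 pairs (7.49%, against 2.88% of all gene pairs) and one below -0.5 for 5 pairs (0.891%, against 1.83%). Only 6 pairs exceeded 0.5 in each sex alone. All these values share 1 platform and the same 50 arrays.

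Pairs within the Kv class had a median r of 0.19 and held 25 of the 42 pairs above 0.5. The closest were Kcnq3 with Kcnh1 at r = 0.69 (rho 0.78, 0.52 in male and 0.67 in female arrays, 0.68 without BTBT T+tf/J). Kcna1 with Kcnd1 also had 0.69, with 0.28 in male and 0.73 in female arrays. Kcna1 with Kcnh1 reached 0.66, Kcna4 with Kcnc2 0.66 and Kcna6 with Kcnh1 0.65. Kcnq3 had r above 0.5 with 10 of its 33 partners, more than any other member, and Kcna6 and Kcnab2 with 7 each. These members also followed the Gapdh 3' minus 5' signal, a sign of RNA quality. The r was 0.77 for Kcnab2, 0.74 for Kcna6, 0.65 for Kcnq3, 0.55 for Kcnh1 and 0.52 for Kcna1. Without BTBT T+tf/J it was 0.85, 0.74, 0.59, 0.59 and 0.39 in the same order. The part of that signal in their co-variation was not tested. Kcnip2, although it had the lowest adjusted p for strain, had 0 such partners and a median r of -0.01. The lowest r was -0.57 between Kcnj3 and Kcnn1, and -0.50 without BTBT T+tf/J, in which Kcnj3 was highest and Kcnn1 next to lowest. Kcnc2 and Kcna2 had r of -0.55 and -0.55 with Kcnj11 (rho -0.38 and -0.40), whose own strain means ranged by 0.40. None of these genes was called for strain, and the male to female r of Kcnj11 was 0.23.

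**Figure D4:**
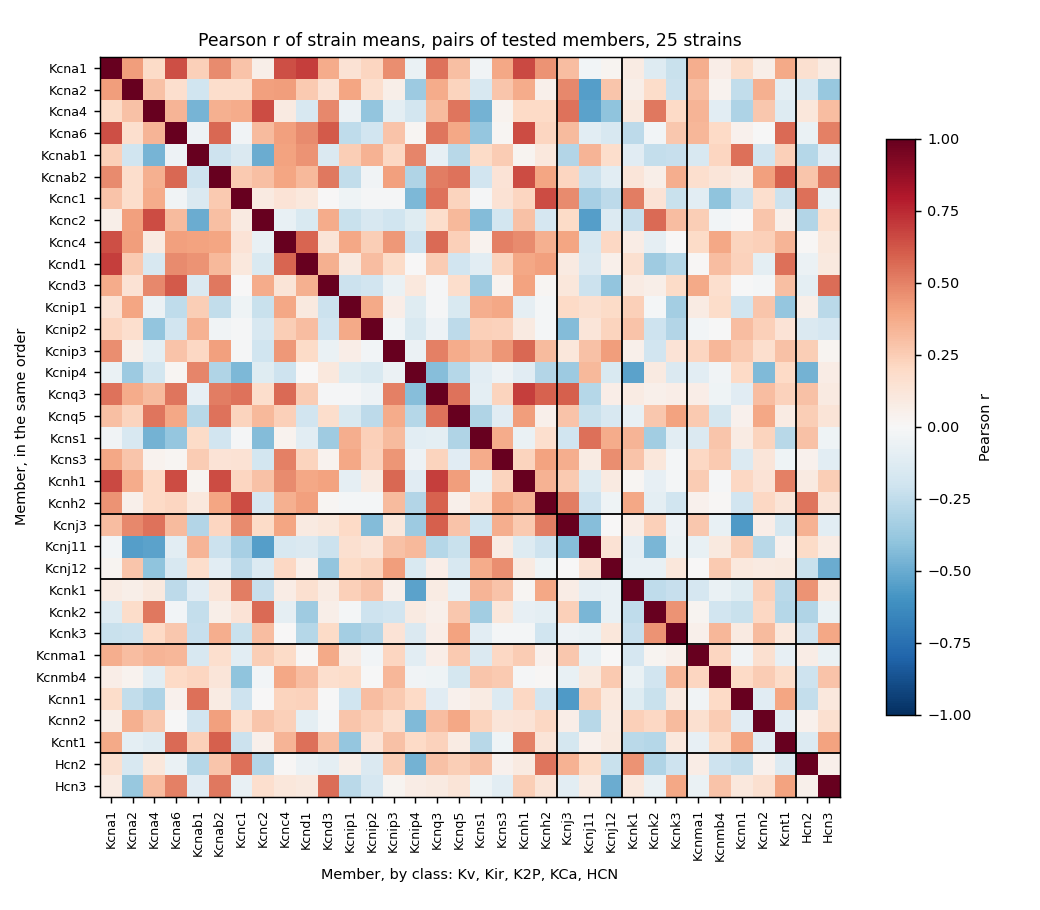
Pearson r of strain means (colour) for all pairs of the 34 tested members over 25 strains, with lines between the Kv, Kir, K2P, KCa and HCN classes. Positive values gather among Kv members such as Kcna1, Kcna6, Kcnq3 and Kcnh1, and the Kcnj11 row is blue against Kcna2, Kcna4 and Kcnc2.

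The mean over all members was highest in NZW/LacJ (0.17 above the average), P/J (0.15) and 129S1/Sv1mJ (0.15). In P/J only the female array was above the average, at 0.31, while the male array was at -0.02. The mean over all members was lowest in C3H/HeJ (-0.18) and A/J (-0.14). It followed the mean of the 12 neuron markers at r = 0.76 over 25 strains, with rho 0.81, 0.75 without BTBT T+tf/J, 0.70 without NON/LtJ and C3H/HeJ, 0.45 in male and 0.78 in female arrays. With 9 markers of large-diameter neurons it had r = 0.56, and with those of peptidergic and non-peptidergic nociceptors -0.05 and -0.18. It ran opposite to the mean of 5 tested endothelial markers (r = -0.69) and that of 2 erythroid markers (-0.67). The means of 6 macrophage, 5 mural cell and 6 fibroblast markers gave -0.55, -0.53 and -0.53. Markers of satellite glia and myelinating Schwann cells gave -0.16 and -0.23. The endothelial markers did not share 1 order. Cldn5 was highest in NZW/LacJ and Cdh5 in P/J, while Emcn was highest in C3H/HeJ, Pecam1 in A/J and Tek in AKR/J. Pecam1 (3.90), Cdh5 (3.59), Alas2 (3.89) and C1qc (3.74) had means under 4, the level of the filter. The neuron list itself ranged from -0.27 in C3H/HeJ to 0.14 in c57BL/6J, and Gapdh 3' minus 5' signal had r = 0.51 with the member mean. Of single members, Kcna1 and Kcnh1 followed the neuron list most closely, at 0.65 and 0.63, whereas Kcnip2, with the lowest adjusted p for strain, had 0.01 and Kcns1 -0.03. The part that cell composition plays in any of these strain differences was not tested.

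**Figure D5:**
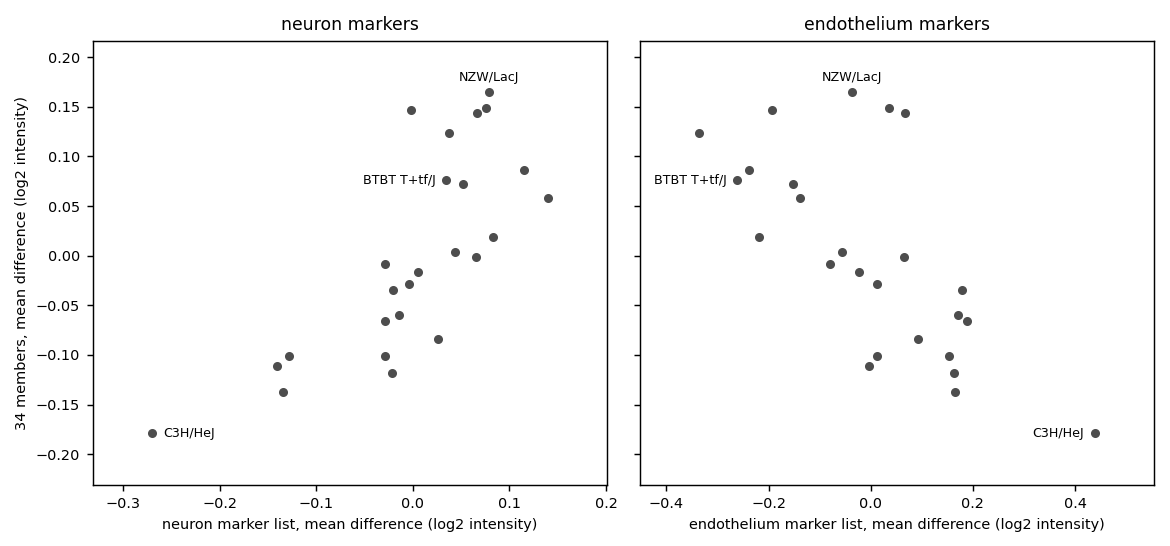
Mean difference of the 34 members (vertical axis, log2 intensity) against that of 12 neuron markers (left) and 5 endothelial markers (right), 1 point for each of 25 strains. Strains with a higher neuron marker mean have higher channel values (r = 0.76). Those with a higher endothelial marker mean have lower ones (r = -0.69), with C3H/HeJ at the far end of both.

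Of 71 other potassium channel and channel partner genes listed, 26 passed the filter and 15 of these (57.7%) were called for strain, against the 26.1% of all genes, with a median range of 1.30. The filter needs only 2 arrays and can admit a gene for being high in 1 strain. Over the genes with a mean above 4, a count added after seeing the data, 13 of 20 were called, against 26.7% of all such genes. Kcnf1, a silent Kv subunit gene, had the widest range, 3.41, from BUB/BnJ at 6.49 for males and 6.96 for females to NZW/LacJ at 2.65 and 3.97 (adjusted p = 2.04e-11, male to female r = 0.92). Both NZW/LacJ values lie under the filter, and the range was 2.72 with values under 4 raised to 4, still the widest of these 26 genes. Kcnmb1, a beta subunit of the large-conductance channel, ranged by 2.30 from NOD/LtJ to FVB/NJ. Abcc8 and Abcc9, the regulatory subunits of the ATP-sensitive channel, whose pore gene Kcnj11 was not called for strain, ranged by 2.13 from 129S1/Sv1mJ to C58/J and by 1.61 from AKR/J to RIIIS/J. Abcc9 exceeded 4 in 9 arrays and Kcnh7 in 4, and with values under 4 raised to 4 they ranged by 0.60 and 0.43. Pex5l, which steers HCN channels to the membrane, ranged by 1.82 between KK/HIJ and SJL/J. Kcnt2 (1.61), Dpp10, a partner of Kv4 channels (1.52), and Kcnh7 (1.42) completed the 8 called genes of widest range.

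Male and female arrays differed in 21 of the 34 members (15 higher in males, 6 in females; limma, strain as a block, adjusted p under 0.05), against 59% of all genes, 24.7% higher in males and 34.3% in females. The males were higher in all 25 strains for Kcnj12 (1.13 log2 units, SE 0.09), Kcnk3 (0.83, SE 0.04), Kcnip3 (0.62, SE 0.05) and Hcn2 (0.55, SE 0.05). They were higher in 23 strains for Kcns1 (0.79), Kcnc4 (0.43) and Hcn3 (0.35), in 22 for Kcnd1 (0.35), in 21 for Kcnab2 (0.24), Kcnh2 (0.28) and Kcnk1 (0.26), and in 18 to 20 for Kcna6, Kcnab1, Kcnq3 and Kcnj3. Female arrays were higher for Kcnn2 (male minus female -0.43), Kcnj11 (-0.39), Kcnma1 (-0.38), Kcnd3 (-0.30), Kcna2 (-0.14) and Kcna1 (-0.14). The signs of Kcnma1 and Kcnd3 turned when all probe sets of a gene were averaged (0.11 and 0.062). Of the 32 further probe sets, 20 had the sign of the leading set of their gene. Sex and the processing of the male and female arrays cannot be told apart here, so these differences describe the 2 sets of arrays.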

How the data were processed

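Each deposited table holds 1 linear intensity per probe set for 1 array of 45101 probe sets. Per the submitters' processing notes, the authors made these values in R 2.6.2 using GCRMA, which corrects background by probe sequence and normalizes; further settings are not given in the sources used here. The target was biotin-labelled RNA, per the labels' protocols. Here log2(value + 1) was taken, 64 control probe sets were left out, and a probe set was tested when above 4 in at least 2 arrays (22205 probe sets). Of 45037 others, 34945 carried 1 gene symbol in the platform's annotation table, 932 several and 9160 none, and only the first kind was named.

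Tests used limma 3.58.1 in R 4.3.3 on all tested probe sets and 50 arrays: the F test over strains with sex as an additive term, each strain against the mean of the other 24 (adjusted over probe sets and strains together, called at an adjusted p under 0.05 and a difference of at least 1), and sex with strain as a block. The male and female pools are paired by strain, which comes from the labels. P-values measure the spread between these pools. The fits were tested on simulated data with known changes of 0.5, 1, 2 and 4 log2 units. For changes in 1 strain, the F test recovered 0%, 18%, 78% and 100%, and the single-strain contrast 0%, 44%, 92% and 100%. The sex test recovered 94% of changes of 0.5 and 100% of larger ones. A member that was not called for strain can therefore still differ between strains. The number of arrays limits the precision.

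Members, lists, rules and alternatives were chosen with earlier results of these data known. Values are given for the called members of widest range, the narrowest 3, the highest mean of each class, members called in single strains or for sex, the 5 highest and 3 lowest correlations, and up to 8 other channel genes. Correlations are descriptions, with no p. Promoters come from RefSeq (GRCm38.p6).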

Additional observations from a re-analysis of the deposited data

How the results depend on the processing

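The count of members called for strain was 20, and lay between 17 and 21 with another pseudocount, quantile normalization, no filter or one at log2 6, the mean of a gene's probe sets, no _s_at, _x_at or _a_at probe sets, limma's trend and robust settings, or without BTBT T+tf/J, SM/J and PL/J, or the 2 arrays of highest Gapdh 3' minus 5' signal. With 1 array left out it was 18 to 25. The share of all genes called also moved with 1 array left out, so these counts do not describe the members alone. Over the other settings named above, that share lay between 14.16% and 30.48%. The setting with no replicate block drops the sex term from the strain test and strain from the sex test. There the count was 9, where 12.75% of all genes were called, and the sex difference then counts as spread. Of the 20, 13 were called again with the mean of all probe sets (not Kcna6, Kcnab1, Kcnd3, Kcnip3, Kcnip4, Kcns3 and Kcnma1), where 30.01% of all genes were called. With no filter 17 were called again (not Kcna4, Kcnma1 and Kcnt1), where the share of all genes was 14.16%. The count called for sex was 20 to 24 with 1 array left out and 16 with no replicate block. The count called in BTBT T+tf/J was 1, and 1 to 2 with 1 array left out. It was 3 with the mean of all probe sets (Kcnab1, Kcnip2 and Kcnip3) and 2 without the 2 Gapdh arrays (Kcnj3 and Kcnj12). With a pseudocount of 16 limma gave 0, as Kcnj3 fell under 1 log2 unit (0.98, adjusted p = 6.59e-05). There 14 of the 34 members had an unadjusted p under 0.05, as in the main fit, and the share over all genes was not counted. The male minus female difference changed sign with the mean of all probe sets in Kcnd3 (0.062), Kcnh1 (0.35), Kcnma1 (0.11) and Kcnn1 (0.18), and in Kcnma1 without _s_at, _x_at and _a_at probe sets (1.06); the cause was not tested. The number of arrays, 2 a strain, limits what can be resolved between strains.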
